A study of Mus musculus with 9 samples.

Results

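The comparison described here sets the 3 libraries of mouse male germ cells titled ClpP cKO spermatocytes against the 3 titled control spermatocytes. These are 6 of the 9 libraries of an RNA sequencing study of ClpP and ClpX, and the other 3 are ClpX conditional knockouts (cKO). Genes were taken from the deposited table of FPKM, reads per gene length and sequencing depth, where their mean over the 9 libraries was at least 1, which kept 17266 of 54532 genes. All animals were at PD 35. The controls have the genotype WT, and the knockouts lost Clpp or Clpx in germ cells through Stra8-Cre, a recombinase made from the late spermatogonial stage onward. Earlier spermatogonia and all somatic cells of the testis therefore keep both genes. Whether the controls carried Stra8-Cre, how the cells were isolated, which exons were removed and whether the 3 libraries of a group come from separate animals are not given in the sources used here. The p-values thus reflect no more than the spread of these libraries, which may be technical. The study's title names mitochondrial function, mTORC1 signalling and meiosis as its questions.

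Inside the mitochondrial matrix, ClpP cuts up proteins that its partner ClpX, a ring-shaped ATPase, has recognised, unfolded and threaded into it. Among the processes tied to ClpP is the assembly of the mitochondrial ribosome, which carries a 12S rRNA in its small subunit and a 16S rRNA in its large one, both encoded with the tRNAs on the mitochondrial chromosome. Cells answer mitochondrial faults and a shortage of amino acids through the integrated stress response, in which the transcription factor ATF4 switches on genes that make, import and charge amino acids. In the testis, spermatocytes turn into round and then elongating spermatids, which replace histones by transition proteins and then by protamines and wind mitochondria around the flagellum.

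The label of spermatocytes was checked against marker genes. Sycp3, a core protein of the meiotic chromosome axis, was at 58.3, 66.5 and 72.6 FPKM in the controls. Tnp2, a transition protein of elongating spermatids, was at 4958, 4995 and 2461 FPKM in the same libraries, and Clu, a secreted protein of Sertoli cells, at 261, 253 and 257. The libraries therefore hold RNA of spermatids and Sertoli cells besides that of spermatocytes. In such mixed material fewer cells of a type and less RNA per cell cannot be told apart, and this applies to every result below.

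Libraries held 14334436 to 17021685 reads in genes. On the first principal component, with 66.5% of the variance, the ClpP cKO libraries lay between -3.41 and 13.2 and the controls between -55.8 and -39.2, with Control 3 nearest to the knockouts. A model across all genes (limma, Benjamini-Hochberg adjusted p under 0.05) called 7722 genes, 44.7% of those tested. Of these 3573 rose (20.7%) and 4149 fell (24%). For 61.7% of the genes no knockout value fell within the range of the controls (31.2% above it and 30.5% below it). At least 2-fold were 57 of the increases (0.33% of tested genes) and 380 of the decreases (2.2%). Every count below is to be read against these shares. For lists of protein-coding genes the nearer reference is the 12827 tested genes of that type, of which 25.8% rose and 23.5% fell. With 1 library fewer the total shrank to 4190 (Control 1 left out), 4888 (Control 2), 3617 (ClpP cKO 2) or 4040 (ClpP cKO 3), and where a list lost many of its calls in this way the lowest count is given with its library. Increases made up 46.3% of the calls, against 71.4% after scaling each library to its own total, 58.5% under quantile normalization and 53.9% with protein-coding genes only. Scaling by own totals moved the median change of all genes from 0.01 to 0.16 on the log2 scale. All changes below are on the scale of log2(FPKM + 1), ClpP cKO minus control, with their standard error (SE).

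The targeted gene Clpp (ENSMUSG00000002660) lies on chromosome 17 from 56990305 to 56996188 of GRCm38. Its level was lower in the knockout, with 9.36, 8.46 and 9.36 FPKM in the controls and 5.16, 6.15 and 3.69 in ClpP cKO. The groups did not overlap, and the gene fell by 0.77 (SE 0.14, adjusted p = 0.0088). Reads of Clpp remained in every knockout library, and a value over the whole gene does not test the exons that were removed. Clpx, the partner, was at 59.3, 55.7 and 54.7 FPKM in the controls and at 40.3, 36.2 and 36.0 in ClpP cKO. Clpx fell by 0.58 (SE 0.11, adjusted p = 0.0088). Under quantile normalization it stood at -0.28 and was not called.

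Several of the largest increases lay on the mitochondrial chromosome, and they differed from one RNA to the next. The 16S rRNA gene mt-Rnr2 was at 63.4, 67.1 and 74.7 FPKM in the controls and at 357, 315 and 318 in ClpP cKO. Every knockout library was more than 4 times as high as every control, and the change was 2.26 (SE 0.11, adjusted p = 0.00015). The 12S rRNA gene mt-Rnr1, transcribed just before it, was at 49.5, 50.9 and 62.6 FPKM in the controls and at 107, 83.7 and 88.0 in ClpP cKO. It rose by 0.76 (SE 0.17, adjusted p = 0.012), again without overlap. The 16S to 12S ratio of FPKM stays the same when a library is multiplied by any factor. It was 1.28, 1.32 and 1.19 in the controls and 3.34, 3.77 and 3.62 in ClpP cKO. The 2 groups were fully apart, with an exact two-sided permutation p of 0.1, the smallest that 3 libraries against 3 allow. Against mt-Nd1, the protein-coding gene that follows, the share of 12S RNA overlapped between the groups, at 0.0445, 0.0438 and 0.0553 of the mt-Nd1 level in the controls and 0.0547, 0.0454 and 0.0465 in ClpP cKO (exact permutation p = 0.6). The share of 16S RNA was 0.0569, 0.0577 and 0.066 in the controls and 0.183, 0.171 and 0.168 in ClpP cKO (exact permutation p = 0.1). Reads of mature rRNA and of longer precursors cannot be told apart here. How fully these libraries capture rRNA was not tested, so the values do not measure the total rRNA of the cells.

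Among 17 tested mitochondrial tRNA genes 13 rose, none fell and 4 did not pass, with a median change of 1.5 (10 rose without ClpP cKO 2). The increases of mt-Tl1 and mt-Ty were the largest of all 17266 tested genes, and their sequences are given for that reason.
mt-Tl1, a leucine tRNA: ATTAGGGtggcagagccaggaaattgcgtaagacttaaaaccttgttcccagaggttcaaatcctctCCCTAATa
mt-Ty, the tyrosine tRNA: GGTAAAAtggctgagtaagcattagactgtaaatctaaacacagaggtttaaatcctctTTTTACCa
The sequences are the GENCODE transcripts (GRCm38), 5′ to 3′, and the capitals mark the 7 bases at each end that pair with each other in the acceptor stem. mt-Tl1 fills MT 2676 to 2750, directly between mt-Rnr2, which ends at 2675, and mt-Nd1, which starts at 2751. It had 15, 21 and 17 reads in the controls and 205, 186 and 182 in ClpP cKO. That corresponded to 13.97, 18.3 and 16.6 FPKM against 158, 159 and 146, with no overlap and a change of 3.18 (SE 0.10, adjusted p = 7.4e-06). mt-Ty lies on the other strand at MT 5260 to 5326, in a cluster of 5 tRNA genes between mt-Nd2 and mt-Co1. It had 1, 6 and 9 reads in the controls and 72, 49 and 60 in ClpP cKO, a change of 3.37 (SE 0.53, adjusted p = 0.0086). In the same cluster mt-Tc, for cysteine, went from 24, 22 and 46 reads to 147, 140 and 135 (2.05, SE 0.34), and mt-Tn, for asparagine, from 28, 16 and 22 to 81, 57 and 67 (1.42, SE 0.24). The glutamine tRNA mt-Tq had no read in any control and only 5, 3 and 3 in ClpP cKO, at the limit of what these depths resolve. mt-Tv and mt-Ti also had no read in any control, and mt-Tm had 0, 0 and 1. The filter takes the mean of all 9 libraries, so such genes were tested only through their knockout values and could hardly fall. They are part of the counts and the median of this list, which therefore do not test its direction. Of the 7 tested tRNA genes on the minus strand 6 rose, and of the 10 on the plus strand 7 did. The strand of the reads is not stated for these libraries, so reads of a tRNA and of the RNA opposite to it cannot be told apart, nor can mature tRNAs and longer precursors.

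Protein-coding genes of the mitochondrial chromosome rose less. The complex I gene mt-Nd1 was at 1113, 1162 and 1132 FPKM in the controls and at 1952, 1841 and 1891 in ClpP cKO (0.74, SE 0.11). mt-Cytb, the complex III subunit, went from 1269, 1298 and 1357 to 2018, 2307 and 2062 (0.70, SE 0.13). Both sets were fully apart, and both calls were lost only when no filter on low values was applied, at an unchanged size. Together 8 of 13 genes rose and 5 did not pass, of which the complex IV gene mt-Co1 was at 2569, 2941 and 2947 FPKM against 3872, 3991 and 3435 (0.42, SE 0.17, adjusted p = 0.077). The count was 5 without Control 1. Levels of the neighbours mt-Co2 and mt-Co3 were far below that of mt-Co1, at 39.8 and 18.4 FPKM against 2569 in Control 1. The segment from mt-Co1 to mt-Nd4 has a near-identical copy on chromosome 1, where the table lists 7 pseudogenes between 24611535 and 24616197. Values of the 6 protein-coding genes from mt-Co2 to mt-Nd4l, with the tRNA genes among them, are therefore uncertain. mt-Rnr2, mt-Tl1 and mt-Ty lie outside that segment. All genes of the chromosome, tested or not, took 0.833% to 0.956% of the reads in the controls and 1.48% to 1.63% in ClpP cKO.

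**Figure D1:**
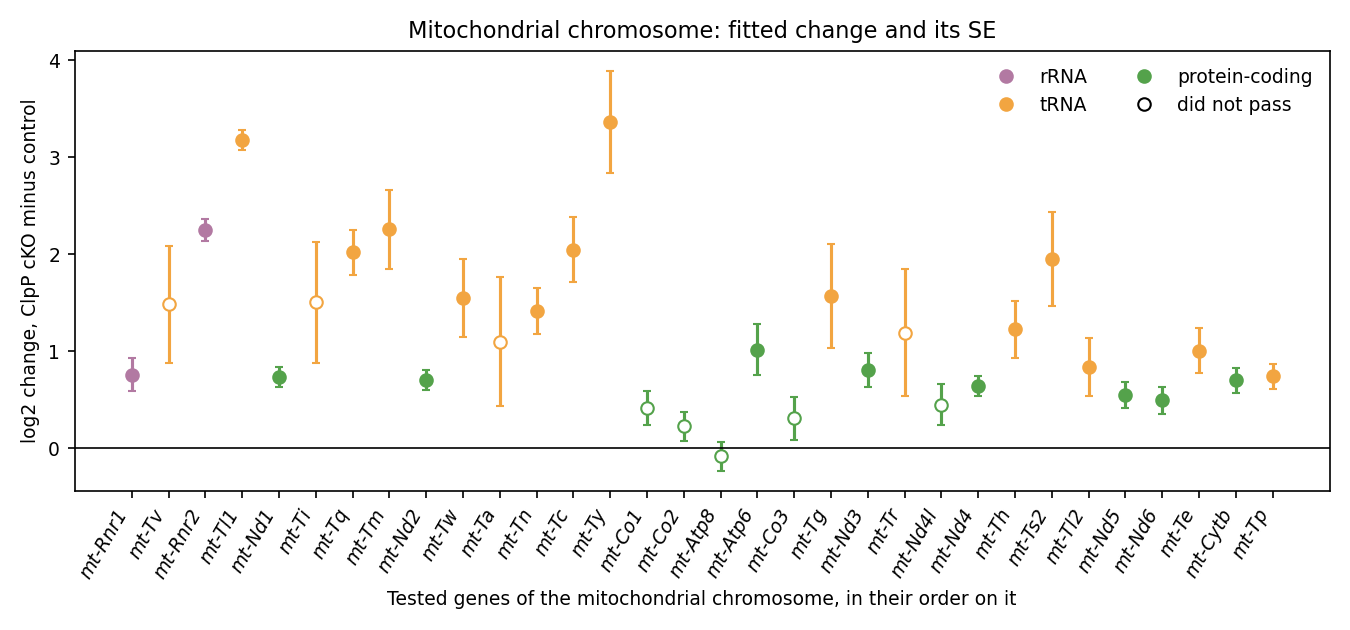
Fitted log2 change between ClpP cKO and control (vertical axis, with SE) of each of the 32 tested genes of the mitochondrial chromosome, in their order along it (horizontal axis), coloured by RNA type; open circles did not pass the test. mt-Tl1 (3.18) and mt-Ty (3.37) stand highest, mt-Rnr2 (2.26) lies well above mt-Rnr1 (0.76), and the protein-coding genes lie between -0.08 and 1.02.

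Nuclear genes that build or serve the mitochondrial ribosome went both ways. Of 78 ribosomal protein genes 17 rose and 6 fell, with a median of 0.14 against 0.08 for all protein-coding genes, and 2 rose without ClpP cKO 2. With own-total scaling 42 rose and none fell (median 0.30). Mrps24 of the small subunit was at 5.002, 4.87 and 5.40 FPKM in the controls and at 6.88, 7.67 and 8.75 in ClpP cKO (0.52, SE 0.11), and Mrpl21 of the large subunit changed by 0.43 (SE 0.10). Of 26 assembly and translation factors 7 rose and 4 fell (3 rose without Control 1, and 14 rose and 1 fell with own-total scaling). Tsfm, an elongation factor, rose by 0.40 (SE 0.08), and Mrm1, which methylates 16S rRNA, by 0.53 (SE 0.13). Nsun4, which methylates 12S rRNA and joins the subunits, was at 55.8, 56.1 and 41.3 FPKM in the controls and at 29.7, 21.2 and 23.7 in ClpP cKO, and it fell by 1.01 (SE 0.22, adjusted p = 0.011). Eral1, a chaperone of 12S rRNA and a known client of ClpP, was at 9.27, 9.27 and 10.3 FPKM against 11.9, 13.8 and 13.01 (0.39, SE 0.10, adjusted p = 0.016). The Eral1 groups did not overlap, but the call was lost without Control 1 (0.37), ClpP cKO 2 (0.35) or ClpP cKO 3 (0.39).

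Genes that copy and express mitochondrial DNA went both ways. Of 17 tested members 8 rose and 2 fell, with a median of 0.22, and 4 rose without Control 2. Mgme1, a nuclease of mitochondrial DNA replication, was at 1.77, 1.96 and 1.82 FPKM in the controls and at 3.34, 3.28 and 3.11 in ClpP cKO (0.58, SE 0.08). Twnk, the helicase, rose by 0.43 (SE 0.10), Dguok, which supplies nucleotides, by 0.48 (SE 0.09), and Tefm, an elongation factor of transcription, by 0.37 (SE 0.08). Tfam, which packages the DNA and starts its transcription, went the other way, from 28.3, 28.9 and 16.8 FPKM to 14.5, 10.6 and 12.1 (-0.91, SE 0.20, adjusted p = 0.011). The groups of Tfam did not overlap, and Control 3 was nearest to the knockouts. Of 18 genes of RNA processing and decay 4 rose (2 without Control 1) and none fell, among them Fastkd1 (0.44, SE 0.07) and Lrpprc (0.33, SE 0.07), both RNA-binding proteins of mitochondria.

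Chaperones and proteases of mitochondria went both ways, with 6 of 24 up and 8 down, 3 up without Control 2 and 4 down without Control 1. The balance turned with the scaling, to 13 up and 3 down with own-total scaling and 8 up and 4 down under quantile normalization. Hspd1, the chaperonin HSP60, was at 21.9, 22.4 and 24.7 FPKM in the controls and at 33.8, 36.9 and 34.6 in ClpP cKO (0.59, SE 0.11, adjusted p = 0.0089). Lonp1, the other main protease of the matrix, was at 10.6, 10.2 and 10.5 FPKM against 14.6, 16.9 and 16.5 (0.57, SE 0.09, adjusted p = 0.0086). Clpb, a disaggregase that is not part of ClpXP, was at 59.2, 64.1 and 36.9 FPKM and at 27.4, 23.02 and 25.7 (-1.01, SE 0.21, adjusted p = 0.010). All 3 of these genes had groups apart. Nuclear genes of the respiratory chain moved in small numbers. In complex I 3 of 36 rose and 6 fell (1 without Control 1), in complexes II and III 2 and 1 of 13, in complex IV with cytochrome c 0 and 5 of 18, and in ATP synthase 3 and 2 of 17. The medians lay between -0.10 and -0.01, and under quantile normalization and own-total scaling all 4 were above 0. Under quantile normalization 8 rose and 1 fell in complex I, and 4 rose and none fell in complex IV. Cyc1, cytochrome c1 of complex III, rose by 0.59 (SE 0.09), and Atp5g2, a c-subunit gene of ATP synthase, by 0.58 (SE 0.11). The 5 genes of complex IV that fell (1 without ClpP cKO 3) stood at 0.02 to 0.09 under quantile normalization.

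Genes of amino acid supply made up 5 of the 12 largest increases of protein-coding genes, namely Mars, Slc1a4, Iars, Gars and Aldh18a1. Mars, the methionyl-tRNA synthetase, lies on chromosome 10 from 127296221 to 127311786. Its controls had 16.3, 18.4 and 18.2 FPKM, and the ClpP cKO libraries had 65.3, 62.4 and 78.8. Every knockout library was more than 3 times as high as every control, and the change was 1.90 (SE 0.16, adjusted p = 0.0071). The end of Mars overlaps that of Ddit3, the stress factor CHOP, by 68 bases on the opposite strand, and Ddit3 was at -0.08 (SE 0.06) and did not pass. Iars, for isoleucine, went from 12, 12.8 and 11.6 FPKM to 32.0, 35.7 and 37.02 (1.45, SE 0.13). Gars, for glycine, went from 18.8, 21.1 and 19.5 to 47.5, 50.2 and 54.2 (1.31, SE 0.14). These 3 genes stood apart from the others of their list, in which 14 of 23 rose, 1 fell and 8 did not pass, with a median of 0.36. The next were Cars (0.77, SE 0.14), Tars (0.73, SE 0.12), Nars (0.72, SE 0.11), Yars (0.69, SE 0.13) and Eprs (0.55, SE 0.08), for cysteine, threonine, asparagine, tyrosine and glutamate with proline. The scaffold gene Eef1e1 rose by 0.61 (SE 0.10). Vars, for valine, was the one member that fell, from 98.6, 113 and 72.7 FPKM to 59.3, 48.0 and 62.5 (-0.72, SE 0.16), a call lost under quantile normalization (-0.35). The 8 members that did not pass lay between -0.05 and 0.16. The synthetases used inside mitochondria rose in 8 of 17 cases and fell in 1, with a median of 0.28 (3 rose without Control 2). Tars2 rose by 0.50 (SE 0.09) and Rars2 by 0.34 (SE 0.06).

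**Figure D2:**
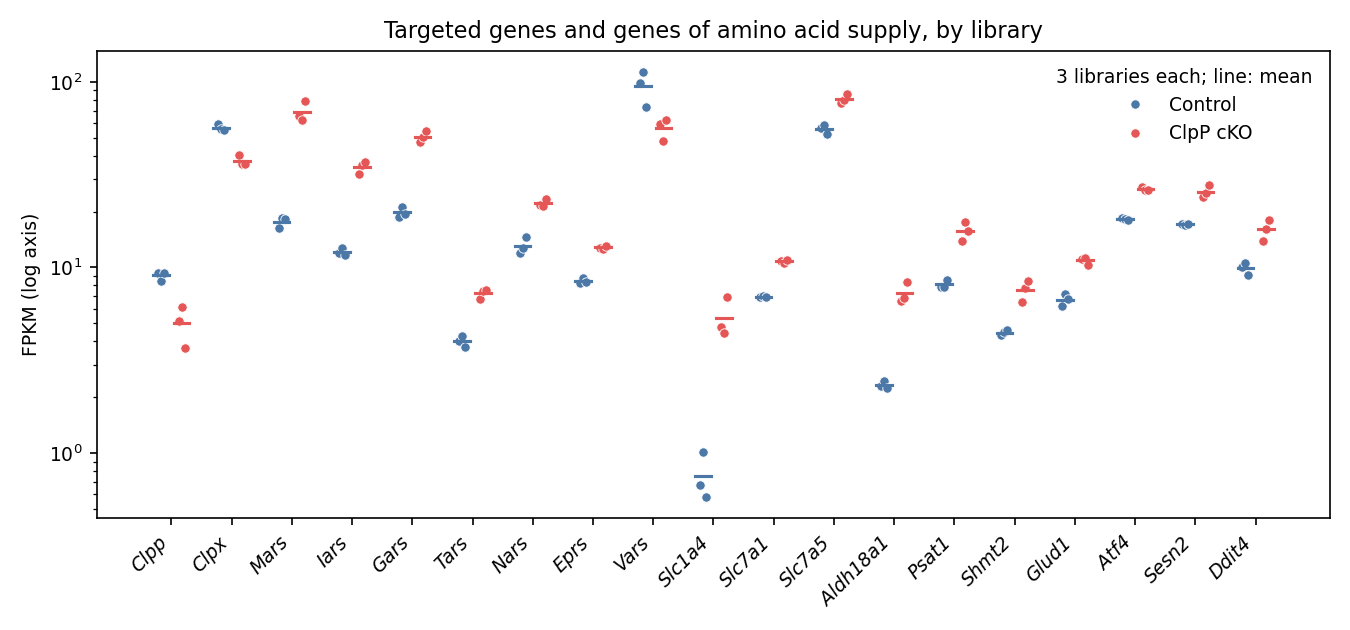
FPKM (vertical axis, log scale) of Clpp, Clpx and 17 genes of amino acid charging, transport, synthesis and stress signalling in each of 3 control (blue) and 3 ClpP cKO libraries (red), with lines at the group means. Mars, Iars, Gars, Slc1a4 and Aldh18a1 show the widest gaps between the groups, and Vars is the synthetase gene with lower values in ClpP cKO.

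Promoter sequences of these genes were searched for TGATGNAA, a site at which ATF4 is known to bind with a C/EBP partner, on both strands of the 300 bases around the start site (RefSeq, GRCm38.p6). It occurred in 5 of the 16 cytosolic synthetase genes with such a window, which were Aars, Gars, Iars, Tars and Yars, and in 3.17% of 11437 tested genes. All 5 rose in ClpP cKO, as did 4 members without the site. It occurred in 0 of 15 mitochondrial synthetase genes and in 0 of 14 genes of serine, glycine and one-carbon enzymes. Amino acid transporters had it in 2 of 15 cases, and proline, asparagine, glutamine and cysteine enzymes in 2 of 12. Integrated stress response genes had it in 2 of 17. Of the genes with the site in these lists, Slc1a4 rose, Herpud1 fell and the others, Asns among them, did not pass. Shown are the stretches upstream of the start site of 3 genes that rose and of Asns, which carries the site and did not rise, with the site in capitals.
Aars: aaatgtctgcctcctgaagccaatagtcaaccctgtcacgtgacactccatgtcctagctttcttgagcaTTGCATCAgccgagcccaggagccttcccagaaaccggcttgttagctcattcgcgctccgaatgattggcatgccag
Gars: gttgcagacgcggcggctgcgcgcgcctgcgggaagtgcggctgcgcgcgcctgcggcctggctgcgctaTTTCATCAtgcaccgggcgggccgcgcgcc
Tars: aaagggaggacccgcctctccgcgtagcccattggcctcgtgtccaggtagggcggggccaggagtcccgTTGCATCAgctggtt
Asns: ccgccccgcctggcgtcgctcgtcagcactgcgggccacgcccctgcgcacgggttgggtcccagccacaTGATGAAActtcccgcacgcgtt
The stretches are chr8:111033660-111033807 (plus strand), chr6:55037901-55038000 (plus), chr15:11399659-11399743 (minus) and chr6:7693210-7693302 (minus), all printed 5′ to 3′ along the gene. In Aars, Gars and Tars the site lies on the strand opposite to the gene. Aars itself rose by 0.36 (SE 0.08), a call lost without ClpP cKO 3 (0.31). A match is a description of letters and shows no binding.

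Amino acid carriers also included genes that rose. Slc1a4, which carries serine, alanine and other neutral amino acids, was at 0.676, 1.02 and 0.579 FPKM in the controls and at 4.77, 4.42 and 6.93 in ClpP cKO. The groups lay far apart (1.85, SE 0.21, adjusted p = 0.0086). The cationic carrier Slc7a1 went from 6.92, 7.01 and 6.97 FPKM to 10.8, 10.6 and 11.0 (0.57, SE 0.11). Slc3a2 and Slc7a5, the 2 chains of a leucine exchanger, rose by 0.57 (SE 0.11) and 0.52 (SE 0.11), and Slc38a2, a glutamine carrier, by 0.50 (SE 0.10). In all 7 of 19 carriers rose and 2 fell, and the median was 0.11. Those that fell were Slc6a6, for taurine (-0.68, SE 0.16), and Slc1a2, for glutamate (-0.54, SE 0.12). Slc1a2 overlaps Gm13872 on the opposite strand by 8854 bases, at means of 1.81 and 5.56 FPKM. Without the strand of the reads, their reads cannot be told apart there.

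Aldh18a1, which commits glutamate to proline and ornithine, was at 2.30, 2.46 and 2.25 FPKM in the controls and at 6.56, 6.85 and 8.37 in ClpP cKO (1.30, SE 0.15, adjusted p = 0.0086). With it 10 of 18 genes for proline, asparagine, glutamine and cysteine rose and none fell, and their median was 0.39. Glud1 (0.63, SE 0.08) joins glutamate metabolism to the citric acid cycle. Gclc (0.49, SE 0.07) starts glutathione synthesis. In the list of serine, glycine and one-carbon enzymes 5 of 16 rose (2 without Control 1 and 10 with own-total scaling), led by Psat1 with 7.86, 7.89 and 8.55 FPKM against 13.9, 17.5 and 15.7 (0.87, SE 0.15). Shmt2, the mitochondrial step from serine to glycine, rose by 0.64 (SE 0.14). Phgdh and Mthfd2, also in that list, changed by 0.47 (SE 0.17) and 0.32 (SE 0.11), and each call ended without Control 1 (0.44 and 0.31), Control 2 (0.47 and 0.31), Control 3 (0.52 and 0.33), ClpP cKO 2 (0.41 and 0.31) or ClpP cKO 3 (0.42 and 0.25). Asns, the asparagine synthetase, was at 53.1, 57.4 and 38.3 FPKM in the controls and at 40.04, 29.9 and 38.2 in ClpP cKO. Its groups overlapped, and the change of -0.44 (SE 0.16) did not pass (adjusted p = 0.056).

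Of 19 tested genes of the integrated stress response 7 rose and 2 fell (none fell without Control 1, and 13 rose with own-total scaling), with a median of 0.27. Atf4 itself was at 18.4, 18.2 and 18.1 FPKM in the controls and at 27.3, 26.2 and 26.3 in ClpP cKO (0.52, SE 0.09, adjusted p = 0.0086). The spread within each group was small and the groups did not overlap. Eif2ak4, the kinase GCN2 that senses uncharged tRNA, rose by 0.36 (SE 0.08), Ppp1r15a, which closes the response by dephosphorylation, by 0.56 (SE 0.13), and Sesn2 and Ddit4, both brakes on mTORC1, by 0.55 (SE 0.11) and 0.63 (SE 0.13). Ppp1r15a overlaps Tulp2 on the opposite strand by 717 bases, at means of 3.21 and 145 FPKM, so its value is uncertain. Herpud1, of protein degradation at the endoplasmic reticulum, was at 83.4, 89.9 and 46.9 FPKM in the controls and at 46.6, 35.6 and 41.1 in ClpP cKO. Herpud1 fell by 0.77 (SE 0.22, adjusted p = 0.023), and leaving out Control 1 (-0.66), Control 2 (-0.60), ClpP cKO 2 (-0.68) or ClpP cKO 3 (-0.78) ended that call. Of 20 genes of endoplasmic reticulum chaperones and the unfolded protein response 8 rose and 2 fell, 4 rose without Control 1, and 15 rose under quantile normalization. Xbp1, its transcription factor, rose by 0.65 (SE 0.12), while Dnajb9, a chaperone it induces, fell by 0.48 (SE 0.06) and Hspa5, the main chaperone, was at 0.06 (SE 0.08) and did not pass.

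The other large increases belong to no such group. Serpina1e, a protease inhibitor gene of a family with near-identical copies, was at 0.13, 0.162 and 0.363 FPKM in the controls and at 2.26, 2.31 and 3.09 in ClpP cKO (1.54, SE 0.22), and its value is uncertain for that reason. Slc28a1, a nucleoside carrier, rose by 1.04 (SE 0.13), Col18a1, a basement membrane collagen, by 1.03 (SE 0.22), and Ttc38 by 1.20 (SE 0.19).

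Components of the mTORC1 pathway, the growth kinase named in the study's title, rose in 14 of 40 cases and fell in none, with a median of 0.20 (7 without ClpP cKO 2, and 27 with own-total scaling). They include activators and brakes. Lamtor3, of the lysosomal anchor, was at 3.79, 3.53 and 3.06 FPKM in the controls and at 6.32, 6.33 and 5.77 in ClpP cKO (0.68, SE 0.09). The S6 kinase genes Rps6kb1 and Rps6kb2, direct targets of mTORC1, rose by 0.46 (SE 0.07) and 0.58 (SE 0.08). Among 81 genes of cytosolic ribosomal proteins 22 rose and 1 fell, with a median of 0.22 (6 rose without ClpP cKO 2, 59 under quantile normalization and 49 with own-total scaling). Rpl10a went from 33.2, 31.7 and 36.6 FPKM to 51.0, 55.8 and 54.3 (0.65, SE 0.12). The gene that fell, Rpl39l, is the testis form of its protein (-0.42, SE 0.09, or 0.02 under quantile normalization). Ribosomal protein genes have many processed copies, and how reads were shared among them is not stated. Of 21 p53 targets and apoptosis genes 11 rose and 1 fell (4 rose without ClpP cKO 2), among them the cell cycle inhibitor Cdkn1a, at 2.57, 2.21 and 1.65 FPKM against 3.75, 3.73 and 3.56 (0.58, SE 0.11), and Bax (0.47, SE 0.10).

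Genes of spermatids were lower in ClpP cKO. All 24 genes of elongating spermatids fell, with a median of -1.24 and values from -1.45 to -0.69, and 19 of 22 genes of round spermatids fell, with a median of -0.76. Without ClpP cKO 2 the first count was 15, and without Control 1 the second was 11. Under quantile normalization 19 of the elongating spermatid genes fell (median -0.77), and of the round spermatid genes 5 fell and 1 rose (median -0.43). Tnp1, the first transition protein, was at 1744, 1514 and 773 FPKM in the controls and at 456, 413 and 528 in ClpP cKO (-1.45, SE 0.29, adjusted p = 0.0099). Tnp2 was at 1554, 1379 and 1702 FPKM in ClpP cKO (-1.35, SE 0.28). Control 3 was the lowest control for both genes, and the groups did not overlap. The summed level of the elongating spermatid genes was 21630, 20730 and 10600 FPKM in the controls and 7336, 6120 and 7227 in ClpP cKO. Without Control 3 their median was the lowest of all leave-outs, at -1.51. Further large decreases were those of H2al1m (-1.49, SE 0.22) and H2al2a (-1.42, SE 0.31), histone variants of families with near-identical copies whose values are uncertain, and of Lelp1 (-1.44, SE 0.29). The protamine gene Prm1 fell by 1.43 (SE 0.35), a call lost without ClpP cKO 2 (-1.33).

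The lists of sperm tail genes share a few members with the elongating spermatid list, Akap4 and Tekt4 in the flagellum list and Smcp and Spata18 in the sheath list. Of 27 flagellum genes 20 fell and none rose, with a median of -0.50 (9 without ClpP cKO 2, 4 under quantile normalization and 11 with own-total scaling). Odf1, an outer dense fibre gene counted among the stage markers, was at 905, 902 and 511 FPKM in the controls and at 365, 280 and 304 in ClpP cKO (-1.25, SE 0.27). Akap4, of the fibrous sheath, fell by 1.23 (SE 0.29), and the radial spoke gene Rsph9 by 0.61 (SE 0.10). Of 18 genes of the mitochondrial sheath 16 fell and 1 rose, with a median of -0.65 (10 down without ClpP cKO 2 and with own-total scaling, 5 under quantile normalization). Smcp, a capsule protein of sperm mitochondria already counted with the elongating spermatid genes, was at 1430, 1460 and 858 FPKM in the controls and at 559, 428 and 476 in ClpP cKO (-1.32, SE 0.27, adjusted p = 0.010). Gpx4, which hardens the capsule, was at 537, 537 and 410 FPKM and at 313, 283 and 294 (-0.72, SE 0.14), a call lost under quantile normalization (-0.14). Spata19, which places the mitochondria along the midpiece, fell by 1.04 (SE 0.22). The decreases in these lists cover nuclear genes of mitochondria in sperm, in the same libraries in which the mitochondrial chromosome's own RNAs rose.

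Among 24 genes typical of pachytene and diplotene cells 13 fell and 4 rose (1 without Control 1). Their median was -0.44, and under quantile normalization it was -0.02, with 5 down and 6 up. Ccna1, the cyclin of the meiotic divisions, was at 74.2, 80.2 and 84.0 FPKM in the controls and at 45.6, 46.5 and 42.3 in ClpP cKO (-0.81, SE 0.13), and M1ap, of the early prophase list, fell by 0.69 (SE 0.13). In that list 15 of 32 rose and 6 fell, with a median of 0.22 (9 up and 2 down without ClpP cKO 2). Under quantile normalization 19 rose and 1 fell (median 0.42), and with own-total scaling 20 rose and 1 fell (median 0.39). Meiob, a recombination factor, was at 13.4, 13.2 and 15.5 FPKM against 25.99, 21.4 and 20.3 (0.65, SE 0.11), and Msh5, needed for crossovers, rose by 0.51 (SE 0.09). Of 19 spermatogonial genes 12 rose and 1, Dmrtb1, fell (-0.60, SE 0.11, or -0.07 under quantile normalization). The median was 0.44, and 4 rose without ClpP cKO 3. The summed FPKM of this list nevertheless ran from 670 to 685 in the controls and from 591 to 612 in ClpP cKO, so the median and the sum differ in sign. Stra8, the entry signal of meiosis and the source of the Cre driver's promoter, was at 9.41, 10.02 and 9.28 FPKM and at 14.5, 14.8 and 14.6 (0.56, SE 0.08), and the receptor gene Kit rose by 0.57 (SE 0.09). Of 19 cell division genes 8 fell and 2 rose, among them the kinase genes Plk1 (-0.70, SE 0.11) and Aurka (-0.57, SE 0.09) and, upward, the proliferation marker Mki67 (0.46, SE 0.08). The piRNA pathway went both ways, with 10 of 22 up and 5 down (5 up without Control 1, and 14 up and 1 down under quantile normalization). Asz1 (0.45, SE 0.07) and Mov10l1 (0.47, SE 0.09), both needed to make piRNAs, rose, and Spocd1, which links them to DNA methylation, fell by 0.68 (SE 0.10).

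**Figure D3:**
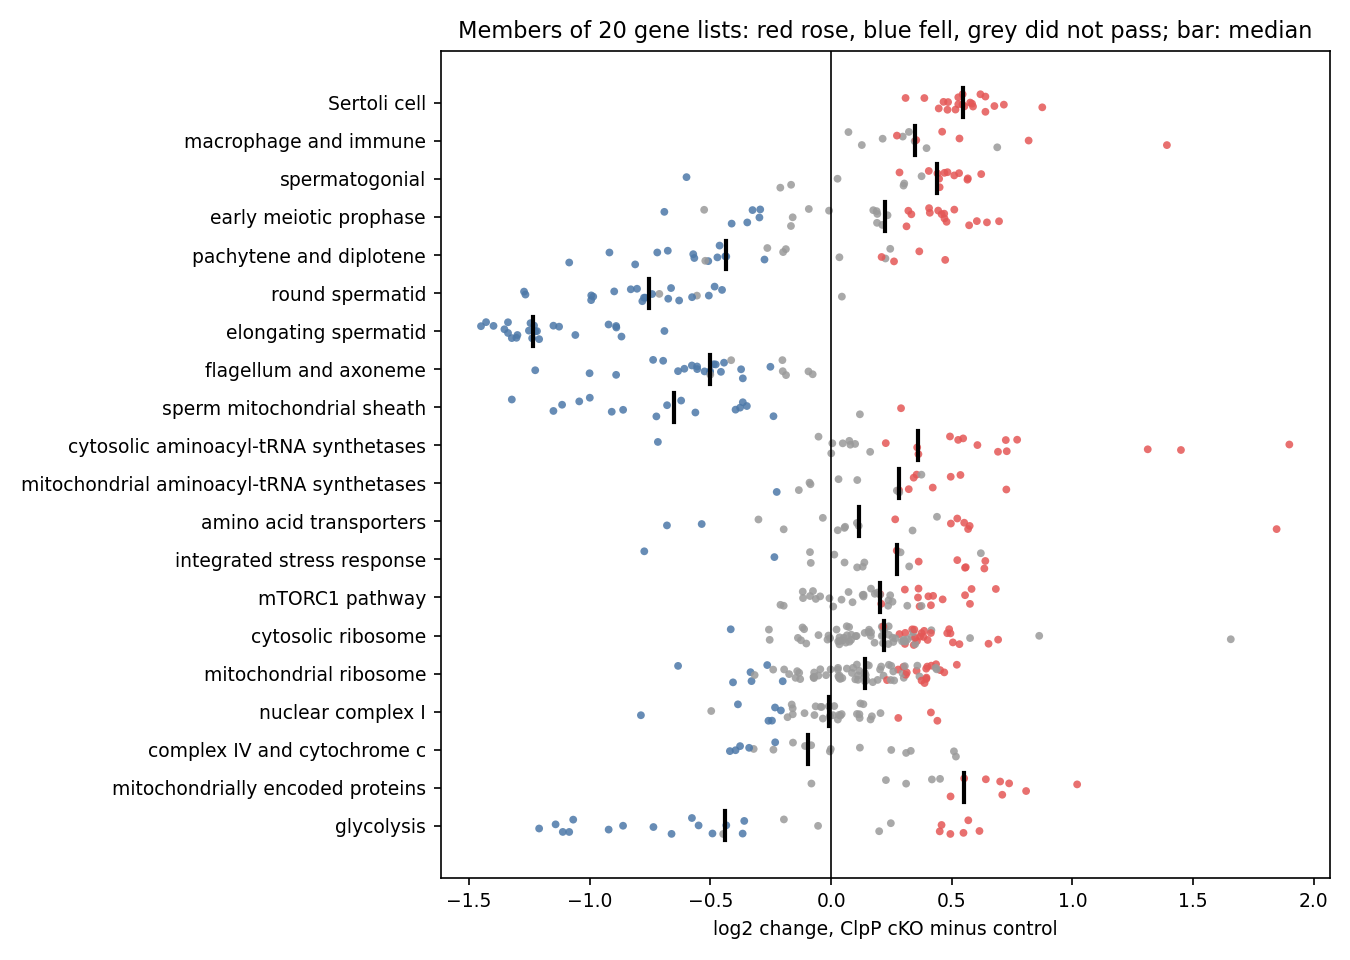
Fitted log2 change between ClpP cKO and control (horizontal axis) of every tested member of 20 gene lists (rows), where each point is a gene, red rose, blue fell, grey did not pass, and the black bar is the list's median. The bars move from 0.54 for Sertoli cell genes through 0.44 for spermatogonial genes to -1.24 for elongating spermatid genes, and the cytosolic synthetase row has outlying points at 1.31, 1.45 and 1.90.

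In glycolysis the genes of sperm or muscle forms fell, while those of somatic forms went both ways. Of 26 tested genes 15 fell and 6 rose, and the median was -0.44 (-0.14 after quantile normalization, with 8 down and 7 up). All 7 genes of a sperm or muscle form fell. Of these, Gapdhs was already counted with the elongating spermatid genes, and Pgk2 and Ldhc with the pachytene and diplotene genes. Gapdhs, the sperm form of glyceraldehyde-3-phosphate dehydrogenase, was at 628, 640 and 379 FPKM in the controls and at 263, 201 and 232 in ClpP cKO (-1.21, SE 0.25, adjusted p = 0.011). Pgk2, the testis phosphoglycerate kinase, went from 417, 413 and 307 to 190, 168 and 172 (-1.09, SE 0.20), Aldoart1 and Aldoart2 fell by 1.11 (SE 0.24) and 1.07 (SE 0.23), and Pgam2 by 0.66 (SE 0.13), the last not called under quantile normalization (-0.18). Ldhc and Eno4 fell by 0.43 (SE 0.13) and 0.37 (SE 0.11), and both calls ended without Control 1 (-0.43 and -0.35), Control 2 (-0.41 and -0.35), ClpP cKO 2 (-0.45 and -0.35) or ClpP cKO 3 (-0.43 and -0.33). Of the 7 somatic forms 2 rose and 2 fell, with a median of 0.20. Pgam1 was at 24.3, 27.2 and 24.1 FPKM in the controls and at 32.9, 38.2 and 36.5 in ClpP cKO (0.49, SE 0.10), and Ldhb rose by 0.55 (SE 0.14), a call that ended without Control 1 (0.55), Control 2 (0.53), ClpP cKO 2 (0.48) or ClpP cKO 3 (0.50). Ldha fell by 0.55 (SE 0.10) and Aldoa by 0.36 (SE 0.09), and under quantile normalization these stood at -0.01 and 0.03. The call of Aldoa also ended without Control 1 (-0.28), Control 2 (-0.34), ClpP cKO 2 (-0.37) or ClpP cKO 3 (-0.35). Outside these forms Hk1, whose gene also gives sperm transcripts, fell by 1.14 (SE 0.22), and Hk2 went from 8.35, 8.25 and 7.82 FPKM to 11.8, 12.95 and 12.9 (0.57, SE 0.12). Of the phosphofructokinase genes, Pfkl, the liver type, rose by 0.61 (SE 0.10), Pfkp, the platelet type, fell by 0.58 (SE 0.10), and Pfkm, the muscle type, fell by 0.49 (SE 0.08), the last not called under quantile normalization (-0.19). The lactate carrier Slc16a1 rose by 0.45 (SE 0.11). Elongating spermatid and Sertoli cell markers moved in these libraries with medians of -1.24 and 0.54, and their part in these changes was not tested. This grouping into forms was made after the values were seen.

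**Figure D4:**
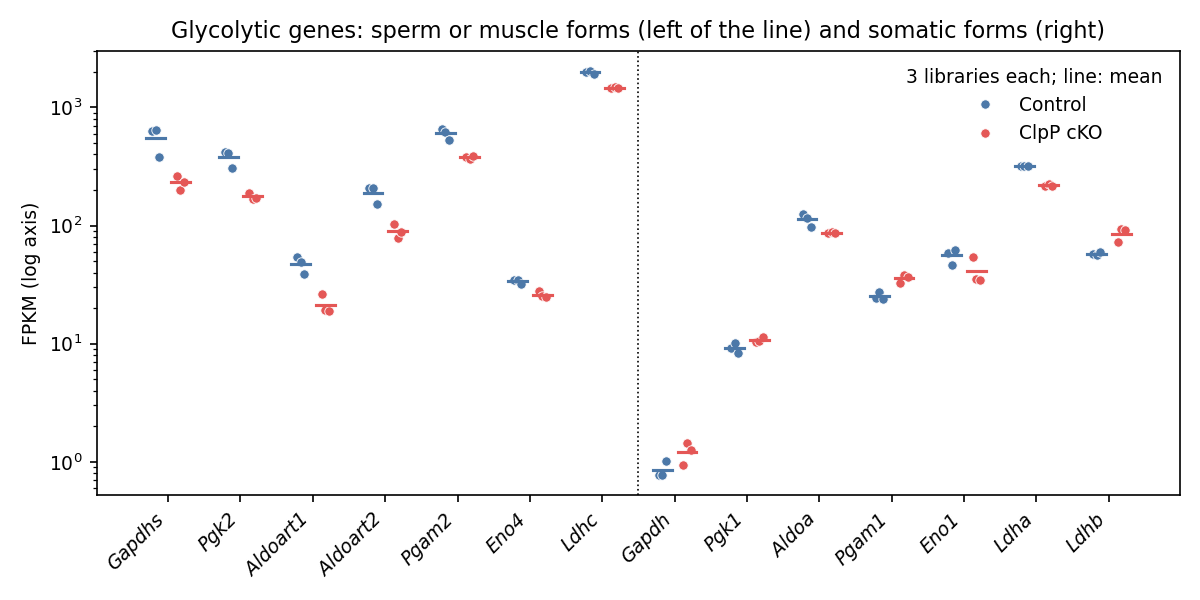
FPKM (vertical axis, log scale) of 7 glycolytic genes of sperm or muscle form and 7 of somatic form (horizontal axis, divided by the dotted line) in each of 3 control (blue) and 3 ClpP cKO libraries (red), with lines at the group means. All 7 genes on the sperm side are lower in ClpP cKO. On the somatic side Pgam1 and Ldhb are higher, and Ldha and Aldoa are lower.

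Markers of somatic cells were also measured, beside all groups above. All 21 tested Sertoli cell genes rose, with a median of 0.54, and 9 did without ClpP cKO 2. Their summed level was 655 to 686 FPKM in the controls and 940 to 1067 in ClpP cKO. Wt1, a transcription factor that defines these cells, was at 9.56, 9.20 and 8.60 FPKM against 13.7, 13.3 and 14.3 (0.54, SE 0.10), and Fshr, their hormone receptor, rose by 0.62 (SE 0.10). Of 14 macrophage and immune genes 6 rose, with sums of 74.4 to 94.5 FPKM against 105 to 143 (2 without Control 1). Cd74, of antigen presentation, was at 3.32, 3.11 and 1.51 FPKM and at 10.2, 8.75 and 6.36 (1.39, SE 0.28). Of 12 peritubular and stromal genes 4 rose (1 without Control 1), with sums of 192 to 235 FPKM against 241 to 282. Of 12 Leydig cell genes 2 rose and 1 fell, with sums of 326 to 528 FPKM against 530 to 716. None of 3 endothelial and 4 erythroid genes passed in this model, where 9415 of all tested genes had an unadjusted p under 0.05, and their sums overlapped, at 6.53 to 7.78 against 6.47 to 7.87 FPKM and at 27.8 to 46.5 against 19.6 to 48.7. The part of these cells in the changes of mitochondrial, amino acid and stress genes was not tested.

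Genes were also counted by level, type and chromosome. Of 414 genes with a mean of at least 100 FPKM 276 fell and 32 rose, with a median of -0.48, whereas of 4512 genes between 2 and 5 FPKM 1109 rose and 703 fell, with a median of 0.11. Long intergenic noncoding RNAs fell in 448 of 1210 cases and rose in 46 (median -0.45), and antisense RNAs in 284 of 812 and 40 (median -0.39). Without ClpP cKO 2 the decreases were 189 and 135. Protein-coding genes, by contrast, rose in 3306 and fell in 3017 of 12827 cases. On the X chromosome 213 of 651 genes rose and 119 fell, with a median of 0.21, against 3334 and 4027 of 16560 on the autosomes and a median of 0.01. The X count was 88 without ClpP cKO 2, and the X median stayed between 0.20 and 0.23 when any one library of the comparison was left out. The difference between X and autosomes was not tested. Some Sertoli cell markers that rose, such as Tsc22d3 (0.72, SE 0.11), are X-linked, and their part in the X count was not tested.

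**Figure D5:**
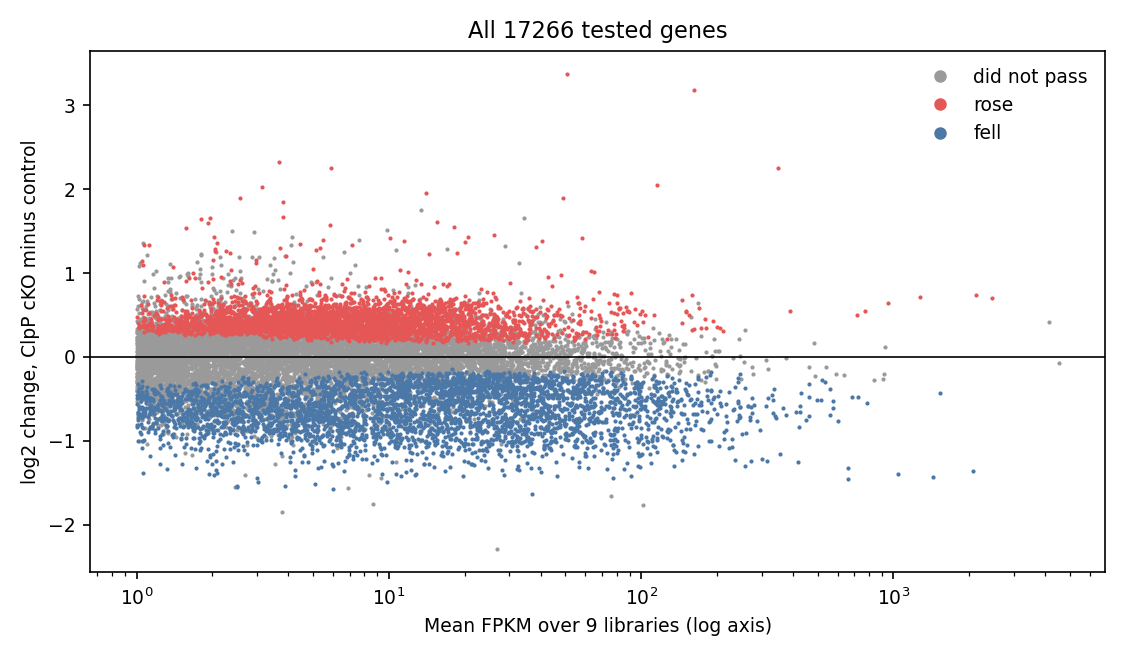
Fitted log2 change between ClpP cKO and control (vertical axis) against the mean FPKM over 9 libraries (horizontal axis, log scale) of all 17266 tested genes, red where a gene rose, blue where it fell and grey where it did not pass. Blue points outnumber red ones on the right, where 276 of 414 genes at 100 FPKM or more fell, and the 2 highest points are mt-Ty (3.37) and mt-Tl1 (3.18).

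ClpX cKO libraries were used to see where loss of ClpP differed from loss of its partner. The contrast of the 2 knockouts, which uses no control library, called 18 genes (0.104% of those tested), 8 higher (0.0463%) and 10 lower (0.0579%) in ClpX cKO, and 4801 genes had an unadjusted p under 0.05. ClpX cKO 1 lay nearest to the ClpP cKO libraries on the first component. Without it 4758 genes were called, and without any other single library of either knockout 0 to 6. mt-Tl1 and mt-Rnr2 were higher still in ClpX cKO, by 1.02 (adjusted p = 0.015) and 0.96 (adjusted p = 0.031), and mt-Nd1 and mt-Nd2 by 0.82 and 0.90. The 16S to 12S ratio was 5.74, 4.86 and 4.94 in ClpX cKO, above every ClpP cKO library. Clpp and Clpx differed as the labels state, and Scgn, a calcium-binding protein gene, was lower in ClpX cKO by 1.23 (adjusted p = 0.034). Mars was at 45.2, 71.7 and 64.9 FPKM in ClpX cKO and Iars at 24.6, 35.6 and 34.5, values that overlap those of ClpP cKO. In the fit without ClpX cKO 1, where 27.6% of all genes were called, 1 of 23 cytosolic synthetase genes and 23 of 24 elongating spermatid genes differed between the knockouts, with median differences of 0.01 and -1.35, and 11 of 13 mitochondrially encoded protein genes were higher in ClpX cKO (median 0.87). In the same fit 17 of 21 Sertoli cell genes were higher (median 0.57) and 21 of 22 round spermatid genes lower (median -0.67) in ClpX cKO, and their part in the other differences was not tested. With all 3 ClpX cKO libraries none of the 24 elongating spermatid, 22 round spermatid, 21 Sertoli cell or 23 cytosolic synthetase genes was called. Of the 13 mitochondrially encoded protein genes 2 were called between the knockouts, both higher in ClpX cKO. ClpX cKO 1 is the library nearest to ClpP cKO, and leaving it out widens the gap between the knockouts. The counts without it therefore do not test that gap.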

How the data were processed

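RNA of 9 libraries, 3 per group, was measured by sequencing of column-purified RNA made into libraries with a SMARTER kit, per the labels' protocols. The authors deposited 1 table of FPKM values per gene with a gene length column, a value of another unit that only served to recover reads, per the file headers. The genome build was mm10, per the submitters' processing notes, and the aligner, the counter, its strand setting and its handling of multiply mapped reads are not given in the sources used here. FPKM values were whole multiples of what 1 read is worth (tolerance 0.01), which returned the reads per gene. The implied denominators differed from the library totals by factors of 0.897 to 0.951 in the controls and 1.04 to 1.05 in ClpP cKO, so the deposited values already carry a scaling between libraries. These factors were 1.001 to 1.018 times those of a trimmed mean of log ratios between libraries, computed from the recovered reads. Scaling by own totals takes this scaling out. Coordinates are those of the table, and 53499 of 54532 genes had the same start and end in GENCODE M21.

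From these, genes with a mean of at least 1 FPKM were fitted as log2(FPKM + 1) in limma 3.58.1 (R 4.3.3), with 3 group means over 9 libraries, 6 residual degrees of freedom and an intensity trend of the variance. Tests were two-sided and Benjamini-Hochberg adjusted over 17266 genes, and genes under 0.05 were called. The pseudocount understates changes of low genes. Sums and figures were made in Python 3.11.15 with pandas 2.3.3, numpy 2.4.6 and matplotlib 3.10.9. The procedure was tried on simulated reads in which few genes changed, equally in both directions, and the scaling did not differ between groups. That does not test it under the many changes and the scaling seen here. Genes to be named were drawn by a rule from Clpp and Clpx, the 12 largest increases and decreases among called protein-coding genes whose groups did not overlap, per list no more than 6 of the called members (lowest adjusted p first), the genes of the mitochondrial chromosome, and up to 5 genes each way between the knockouts. Several genes, among them Prm2 and Klk1b8 of the largest decreases, are not described although they fall under this rule. Picked outside it with their values in view were Aars, Akap4, Aldoa, Aldoart1, Aldoart2, Asns, Cars, Ddit3, Eno4, Gapdhs, Herpud1, Hk1, Hk2, Hspa5, Ldhb, Ldhc, Nars, Odf1, Pgam1, Pgam2, Slc16a1, Slc6a6, Sycp3, Vars, Yars and the genes of the closing observations. The members and the gene lists were chosen with earlier results of these data known. Of 320 named genes checked, 84 overlapped the span of another tested gene, and reads there may not be separable. Just inside the filter lay 511 genes (mean 1 to 1.1 FPKM) and just outside 535 (0.9 to 1). Alternatives were another pseudocount, other filters, other scalings, other models and leaving out each library. Library numbers were not taken to pair the samples.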

Additional observations from a re-analysis of the deposited data

How the results depend on the processing

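Results were recomputed with a pseudocount of 0.1, without a filter, with a mean of at least 5 FPKM, with median-of-ratios, quantile and own-total scaling, with the compared libraries only, with a robust variance prior, with protein-coding genes only, with voom on recovered reads, and without each library. Of 299 named genes that were called, 178 were called under every alternative that gave them a value (15 to 17 each, ClpX cKO leave-outs not included), and 121 were not under at least 1. The number of genes called between ClpP cKO and control ran from 3617 to 6553 when 1 library was left out, with 1593 to 2984 higher and 2024 to 3569 lower. Increases numbered 2298 with a mean of at least 5 FPKM, where fewer genes were tested. With own-total scaling 5992 rose and 2404 fell. Between the knockouts 29 genes were called under quantile normalization, 89 with the compared libraries only, 42 with voom, and 0 to 4758 when 1 library was left out. A replicate block on the library numbers called 7845 genes against control and 1 between the knockouts. Same-numbered libraries deviated with correlations of 0.064, 0.057 and -0.070, and other pairs of a control and a ClpP cKO library with -0.11 to 0.078. The numbers were not taken as a pairing, though such correlations cannot exclude one. Under quantile normalization the sign turned for Creld2 (0.061), Ndufc1 (0.044), Ndufv2 (0.11), Uqcrfs1 (0.092), Cox7a2 (0.027), Cox5a (0.031), Cox7b2 (0.088), Cox6b2 (0.057), Cox8c (0.024), Timm8b (0.12), Rpl39l (0.025), Psmc3 (0.058), Psmd8 (0.10), Vdac2 (0.037), Aldoa (0.028) and Ddit3 (0.094). With own-total scaling it turned for Atp5j (0.013) and Ddit3 (0.094). Leaving out 1 library gave Hbb-bs -0.66 to 0.086 and mt-Atp8 -0.18 to 0.026, neither of them called. The cause was not tested. Several mitochondrial tRNA genes had under 10 reads in each control, which limits their precision.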

Other observations

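Some genes had 1 library far from the other 8. Rpl34, a ribosomal protein gene with many processed copies, was at 43.2, 44.2 and 0.916 FPKM in the controls and at 46.4, 48.9 and 49.7 in ClpP cKO, so that its change of 1.66 did not pass and came with 1 control, Control 3. The noncoding RNA 1700104B16Rik was at 52.3, 55.7 and 1.12 FPKM in the controls and at 38.1, 38.6 and 41.5 in ClpP cKO, again with Control 3 as the low library. The pseudogene Gm6969 was at 58.8 FPKM in ClpX cKO 1 and at most 5.31 in any other library.

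Of 28 antioxidant genes 7 rose (25%, and 1 gene without ClpP cKO 3) and 6 fell (21.4%). These shares lie near the 25.8% and 23.5% of all tested protein-coding genes. Txndc8 and Txndc2, thioredoxins of spermatids and sperm, changed by -1.06 and -1.13 in ClpP cKO, while Txn1, the general form, rose by 0.68. Txndc2 was already counted with the elongating spermatid genes. Small nucleolar RNAs rose in 13 of 115 cases (11.3%, against 20.7% of all tested genes) and fell in 2 (1.74%, against 24%), with a median of 0.18. Atp5e, a subunit of ATP synthase, was at 49.4, 39.6 and 24.5 FPKM in the controls and at 36.4, 38.9 and 41.2 in ClpP cKO, which overlap, and its level in ClpX cKO minus that in ClpP cKO was -2.28 on the log2 scale (limma, adjusted p = 0.0154).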
